A study of Mus musculus with 24 samples.

Results

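The genes of the tail bud and of the presomitic mesoderm were followed through 24 Illumina mouse bead arrays. The set was defined by name as T, Cdx1, Cdx2, Cdx4, Wnt3a, Nkx1-2, Tbx6, Fgf8, Msgn1 and Hes7, and a member was the array target whose ID is the gene's symbol or a RefSeq synonym of it. Of these 10 genes, 9 had a target ID among the 31483 of the series. All 9 lay among the 25206 target IDs with a value on all 24 arrays, and Msgn1 was not analysed here. The target IDs are T, CDX1, CDX2, CDX4, WNT3A, NKX1-2, TBX6, FGF8 and HES7, written here with the mouse symbols. The members were chosen by name.

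The 24 samples formed 8 groups of 3: wild type and Cirh1a+/- at embryonic day (E) 8.5 and E9.5, each as whole embryos, and the same genotypes at E11.5 and E12.5, each as liver. All were of the C57BL/6 JAX strain, and the heterozygotes carried 1 β-Geo gene-trap allele of Cirh1a, which codes for the nucleolar protein cirhin. Wild-type and heterozygous embryos were littermates, genotyped by PCR on yolk sac. Whether an array held the RNA of 1 embryo or of several, and whether replicates were from separate litters, is not in the labels, so the p-values measure only the spread between these samples. In a whole embryo, fewer tail bud cells and less RNA per cell cannot be told apart.

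The tail bud is the growing end of the embryo, where progenitors held under Wnt and Fgf signals feed the spinal cord and the presomitic mesoderm. Wnt3a and Fgf8 are the secreted signals. T (Brachyury), the caudal factors Cdx1, Cdx2 and Cdx4 and the homeobox factor Nkx1-2 mark the progenitors. Tbx6 and Msgn1 commit cells to presomitic mesoderm, and Hes7 is a repressor of the clock that times the cutting of somites. Liver has no such growth zone, and serves here as the later tissue in which the same targets were read.

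Each deposited value is a log2 expression value of 1 target ID. Of the 9 members, T, Cdx2, Cdx4, Wnt3a, Fgf8 and Hes7 are read by 1 probe each and Cdx1, Nkx1-2 and Tbx6 by 2. In build GRCm38.p6 the genes lie at chr17:8434423-8442496 (T), chr5:147300900-147307249 (Cdx2), chrX:103321398-103330224 (Cdx4), chr11:59248036-59290751 (Wnt3a), chr7:132596239-132599637 (Nkx1-2), chr7:126781483-126785548 (Tbx6), chr19:45736491-45742941 (Fgf8) and chr11:69118906-69124054 (Hes7). The upstream sequences of 3 members are shown: T and Tbx6, the T-box members, and Nkx1-2. Tbx6 and Nkx1-2 were the members with a match to a searched motif, set in capitals. Each sequence is the RefSeq promoter window of the same build, limited to the 250 bases before the annotated start and written 5′ to 3′ on the gene's strand. They lie at chr17:8434173-8434422 (plus strand), chr7:126781233-126781482 (plus strand) and chr7:132599638-132599887 (minus strand).
T: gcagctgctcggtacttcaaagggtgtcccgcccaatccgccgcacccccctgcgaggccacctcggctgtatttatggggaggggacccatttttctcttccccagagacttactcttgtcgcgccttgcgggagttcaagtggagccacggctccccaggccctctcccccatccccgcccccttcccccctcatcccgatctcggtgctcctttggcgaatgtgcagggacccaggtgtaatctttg
Tbx6: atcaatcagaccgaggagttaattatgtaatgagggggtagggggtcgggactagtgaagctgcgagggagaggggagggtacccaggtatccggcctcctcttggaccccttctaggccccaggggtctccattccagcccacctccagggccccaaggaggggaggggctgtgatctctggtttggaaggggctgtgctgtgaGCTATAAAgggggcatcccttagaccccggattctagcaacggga
Nkx1-2: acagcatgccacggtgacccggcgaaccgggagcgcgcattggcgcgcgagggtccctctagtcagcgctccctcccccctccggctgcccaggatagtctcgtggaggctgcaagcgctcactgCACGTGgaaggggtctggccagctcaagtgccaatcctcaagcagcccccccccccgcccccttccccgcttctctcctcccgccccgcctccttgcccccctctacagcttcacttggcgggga

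The windows of 7 members were searched on both strands, those of T, Cdx2, Cdx4, Wnt3a, Nkx1-2, Tbx6 and Hes7. The Hes7 window lies inside the annotated gene, after a more upstream start. A caudal site, searched as GCNATAAA, stood in the Tbx6 window alone, at 45 to 38 bases before the start, where its last 6 letters are also the core letters of a TATA box. The same letters occurred in 2.32% of the 32851 promoter windows of the table. An E-box, CACGTG, stood in the Nkx1-2 window alone, ending 120 bases before the start, against 6.02% of all windows. The T-box site TCACACCT (1.12% of all windows) and the Tcf/Lef site ATCAAAG (3.21%) had no match in the 7 windows. Only the letters given were searched, so other forms of these sites were not counted. The T window holds TTCAAAG, for example, a form that was not searched. These searched motifs did not overlap each other. A match describes the letters of a window and does not show binding.

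The targeted gene followed the labels wherever it had a value. The heterozygote minus wild type difference of Cirh1a was -0.95 at E8.5, -0.86 at E9.5 and -0.92 at E12.5 on the log2 scale, with the heterozygotes wholly below wild type at each of these stages. Its adjusted p by limma was 0.802, 0.00771 and 0.669 in that order, and its E11.5 level was not analysed here. Arrays of E8.5 and of E12.5 have the same value distribution, with percentiles at most 0.00151 log2 apart. Those of E9.5 differ from it by up to 4.51 and those of E11.5 by up to 4.86. Levels at E9.5 and E11.5 were therefore compared with other stages only as percentiles within each array. At E8.5 the wild-type arrays carried Y-linked Eif2s3y (mean 9.26 against 1.99) and the heterozygote arrays Xist (9.64 against 2.14), so genotype and sex cannot be told apart there. At E9.5 all groups carried both, Xist at 10.78 in wild type and 9.84 in heterozygotes and Eif2s3y at 9.07 and 9.47. Their SDs in these groups were 0.57 and 0.44 for Xist and 0.37 and 0.18 for Eif2s3y, so each array carried both. An E9.5 array thus did not hold RNA of 1 sex alone, and how many embryos it held is not in the labels. The liver markers Ttr, Apoa1, Afp and Hnf4a were high in the liver arrays, but Alb read 6.83 in wild type and 7.02 in heterozygotes at E11.5, near the median of 6.90. A whole-embryo array stood apart: in E8.5 heterozygote replicate 1 the erythroid markers Slc4a1, Alas2 and Klf1 had a mean log2 level of 3.82, against 7.81 to 9.06 in the other 5 arrays of that stage. The genotype comparisons of the members at E8.5 are given with and without it, and those of the gene lists with it only.

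In whole embryos 8 of the 9 genes read far above the middle of the array at both stages, and in liver they read near or below it. The percentile of a gene is its rank among the 25206 shared target IDs of the same array, and is used here to follow 1 gene across stages, not to rank genes, whose probes differ. Across the 6 arrays of a stage, the ligand Wnt3a lay between percentiles 89.8 and 92.7 at E8.5 and between 87.5 and 89.0 at E9.5. In liver it lay between 21.6 and 56.8 at E11.5 and between 38.6 and 59.3 at E12.5, so that no liver array reached the embryos' range. Fgf8, which keeps the progenitors immature, lay between 86.9 and 91.1 at E8.5 and 84.3 and 87.3 at E9.5, against 32.6 to 48.7 and 34.6 to 53.5 in liver.

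The transcription factors of the progenitors stepped down in the same way. Cdx2, the caudal factor also used in trophoblast and gut, ranged from 93.9 to 97.1 at E8.5 and from 90.4 to 94.1 at E9.5. At E12.5 its 6 liver arrays scattered from 2.04 to 67.8, the widest range of the set, and no liver array came near the embryos. T spanned 87.9 to 91.5 at E8.5, 81.3 to 85.4 at E9.5, 31.8 to 49.5 at E11.5 and 14.5 to 56.7 at E12.5. Cdx4, which sits on the X chromosome, spanned 83.2 to 87.0 and 78.4 to 85.2 in the embryos and 18.0 to 46.9 and 5.56 to 30.5 in liver. Nkx1-2 went from 77.1 to 84.9 at E8.5 and 70.4 to 72.6 at E9.5 to 19.2 to 40.1 and 31.8 to 51.6 in liver. Cdx1, the caudal gene that also serves the gut lining, had 77.7 to 88.7 at E8.5 and a narrow 72.9 to 73.9 at E9.5, against 50.5 to 57.3 and 40.1 to 58.3 in liver.

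Tbx6 and Hes7, which act in the presomitic mesoderm, differed from each other. Tbx6 lay between percentiles 88.4 and 91.5 at E8.5 and between 73.0 and 78.5 at E9.5, and lay between 14.1 and 32.1 at E11.5 and between 33.8 and 55.9 at E12.5. Hes7 had a mean percentile between 40.5 and 61.5 at every stage, with arrays at 54.1 to 66.9 at E8.5, 46.8 to 57.3 at E9.5, 46.5 to 62.2 at E11.5 and 18.4 to 53.6 at E12.5, where heterozygote replicate 3 was the lowest. Its embryo arrays overlapped its liver arrays, and its mean level at E9.5 was 6.71 against a median of 6.63 for all target IDs. Values of Hes7 are given with that limit. The plot of percentiles by stage shows the step between embryo and liver for the other 8 genes.

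**Figure D1:**
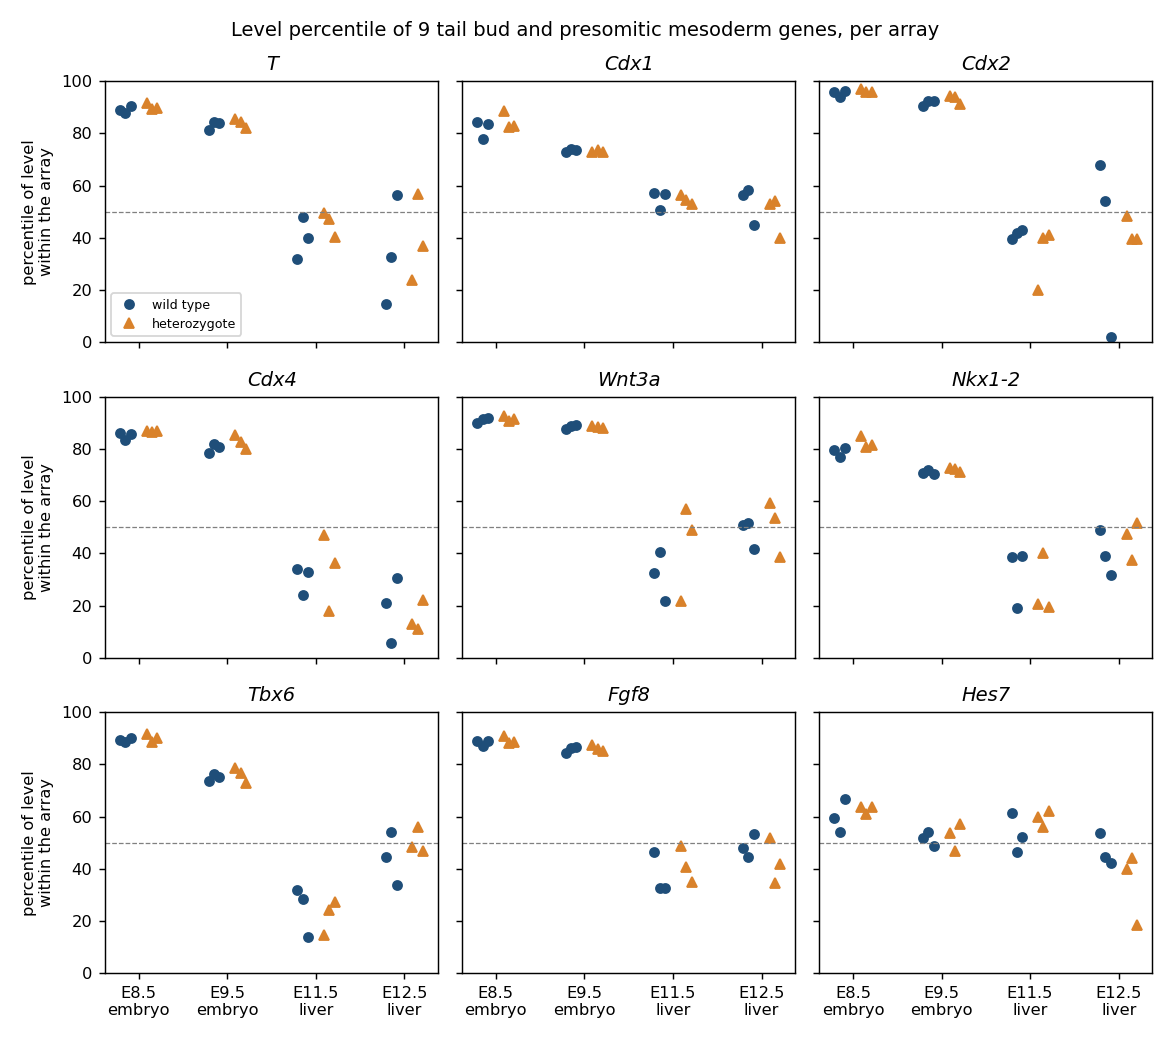
Percentile of each gene's log2 level within its array (vertical axis, 0 to 100; dashed line at 50) for the 4 stages (horizontal axis), with 1 point per array, circles for wild type and triangles for heterozygotes. For 8 genes every embryo array lies at 70.4 or above and every liver array at 67.8 or below, whereas Hes7 lies between 18.4 and 66.9 throughout.

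All 9 genes were lower in E12.5 liver than in E8.5 whole embryo, the comparison across stages that the shared normalization allows. The differences on the deposited log2 scale lay between -1.06 for Hes7 and -8.11 for Cdx2, with a median of -6.25 against -0.06 over all 25207 target IDs tested. By limma at an adjusted p under 0.05, 27.3% of all target IDs were lower and 18.5% higher, and of the members 9 of 9 were lower. Stage, tissue and array run cannot be told apart in this comparison, and liver values near the array's median of 2.64 may be background, so that the true differences can be larger than measured and the sizes of different genes cannot be ranked. Markers of other tissues differed in the same comparison. The 3 heart markers with values were lower (median -3.99), 3 of 4 markers of visceral endoderm and placenta were lower (median -5.74) and 3 of 4 liver markers higher (median 1.45). The erythroid markers Slc4a1 (5.33), Alas2 (6.30) and Klf1 (5.63) were higher, and of 4 neural markers 1 was higher and 0 lower. Their part in the differences of the tail bud genes was not tested.

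Signals and transcription factors were both lower. The log2 level of Wnt3a was 9.38 ± 0.26 in the E8.5 embryos and 2.72 ± 0.31 in the E12.5 livers (SD, n = 6 each), a difference of -6.66 (SE 0.159, adjusted p = 3.95e-13 by limma). Fgf8 went from 8.77 ± 0.32 to 2.57 ± 0.23, a difference of -6.20 (SE 0.162, adjusted p = 9.23e-13). T, whose loss stops axis growth in mice, went from 8.94 ± 0.30 to 2.40 ± 0.51 (-6.55, SE 0.222, adjusted p = 1.32e-11). In each of these genes every liver array lay below every embryo array. The same held for Tbx6 (-6.34, SE 0.153), Cdx4 (-6.25, SE 0.144), Cdx1 (-4.76, SE 0.297) and Nkx1-2 (-4.53, SE 0.190), with adjusted p values between 2.78e-13 and 7.79e-09. It also held for the heart markers Myl7, Nkx2-5 and Actc1, and the share of all target IDs without overlap was not counted.

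Cdx2 was the most variable member in liver. Its level was 10.77 ± 0.39 at E8.5 and 2.67 ± 0.95 at E12.5, where wild-type replicates 1, 2 and 3 read 4.32, 2.88 and 1.41 and the heterozygotes 2.64, 2.37 and 2.37. Wild-type replicate 1 was thus the highest liver array and still lay far below the lowest embryo array, at 10.10. Hes7, whose embryo level was itself near the array median, went from 3.49 ± 0.44 to 2.43 ± 0.31 (SE 0.207, adjusted p = 0.000689). Its highest liver value of 2.86 was just below its lowest embryo value of 2.88, and with wild-type arrays alone the difference was -0.82 with an adjusted p of 0.0877.

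**Figure D2:**
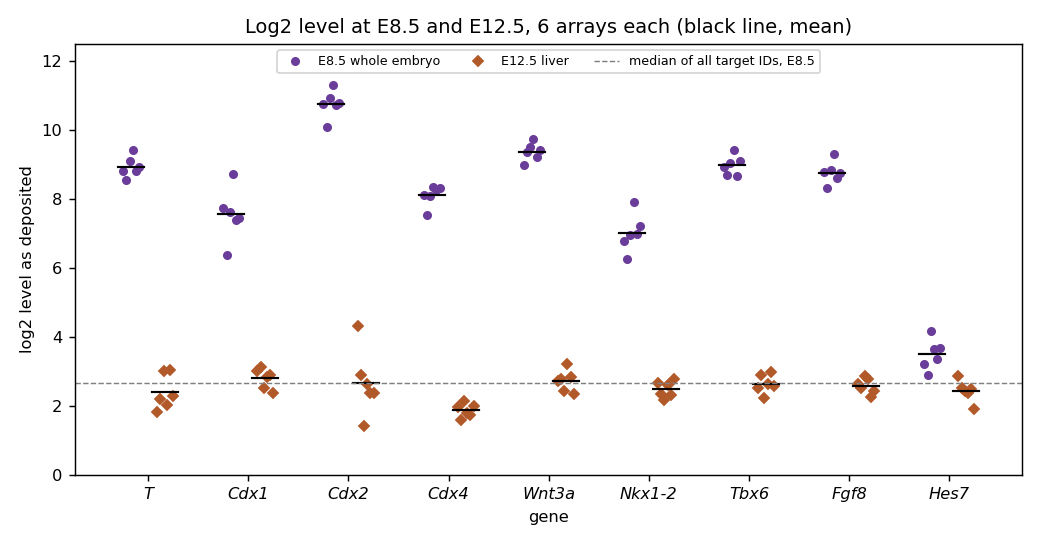
Log2 level as deposited (vertical axis) of each gene in the 6 E8.5 whole-embryo arrays (circles) and the 6 E12.5 liver arrays (diamonds), with the mean as a black line and the median of all target IDs at E8.5 dashed. Liver values of the 9 genes lie between 1.41 and 4.32, and Hes7 has the embryo values closest to that range (2.88 to 4.16).

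Other genes of the same signalling routes, from lists drawn up with earlier results of these data known, were mostly lower in E12.5 liver too. Of the Wnt list 13 of 15 tested were lower and 0 higher, led by the receptor Fzd10 (-7.84, SE 0.128), with the target genes Sp5 (-4.91, SE 0.235) and Axin2 (-4.78, SE 0.145) among them. Porcn, needed for Wnt secretion, and the nuclear partner Lef1 did not pass (-0.35 and 0.10). The other genes of that list called lower were Wnt5a, Wnt5b, Sp8, Tcf7, Rspo3, Wnt8a, Dkk1, Notum, Ccnd1 and Nkd1. Of the Fgf list 11 of 13 were lower, led by the phosphatase Dusp4 (-6.77, SE 0.139) and the receptor antagonist Il17rd (-6.11, SE 0.117), while Dusp6, a phosphatase induced by Fgf, was higher (3.12, SE 0.124). Etv4, Fgfr1, Etv5, Fgf17, Spry4, Fgf18, Fgf3, Snai1 and Spry2 were the others called lower, and Fgf4 did not pass (0.10).

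The list of Notch and segmentation clock genes had 12 of 15 lower, with the repressor Hes5 at -4.55 (SE 0.215) and the ligand Dll1 at -3.56 (SE 0.181). Lfng and Mesp2, which belong to the clock and to the forming somite, did not pass (-0.49 and -0.06) and read 2.63 and 2.18 at E8.5, no higher than the array's median of 2.65. Notch2 did not pass either (0.40), and Hey1, Mesp1, Dll3, Hey2, Hes1, Nrarp, Notch1, Ripply1 and Cited1 were among those lower. Of the axial progenitor and streak list 10 of 13 were lower, led by Hoxb1 (-6.13, SE 0.118) and Evx1 (-5.86, SE 0.190), with Greb1, Shh, Sox2, Cyp26a1, Mixl1, Grsf1, Noto and Eomes also lower, and Foxa2 (0.64, SE 0.195) and Nodal (0.70, SE 0.239) were higher. Of the somite list 11 of 14 were lower, led by Meox1 (-6.19, SE 0.184) and Foxc2 (-6.04, SE 0.283), with Tcf15, Foxc1, Aldh1a2, Twist1, Meox2, Pax1, Tbx18, Pax3 and Uncx also lower, and the muscle factor Myog was higher (0.57, SE 0.163). The medians were -2.80 for the Wnt list, -2.34 for Fgf, -1.86 for Notch, -1.84 for axial progenitors and -1.87 for somites. These lists are described beside the members and were not tested as sets. Foxa2, Nodal, Myog, Pax1, Pax3, Tbx18, Uncx, Noto, Eomes and Spry2 had a mean level over both stages below the median of all target IDs, so their differences lie between values not shown to be above background.

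From E8.5 to E9.5 each of the 9 genes had a lower mean percentile, with no test since those arrays were normalized separately. Tbx6 had the widest gap, from 89.7 to 75.5, a change of -14.2 percentile points. Cdx1 went from 83.2 to 73.3 (-9.91), Nkx1-2 from 80.6 to 71.5 (-9.15) and T from 89.6 to 83.6 (-5.99). For these genes and for Wnt3a (91.3 to 88.4, -2.91) the 6 arrays of E9.5 lay wholly below the 6 of E8.5. That made 5 of 9 genes, where 24% of all shared target IDs were lower without overlap and 15.9% higher.

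The ranges of the other 4 genes overlapped between the stages. Cdx4 had -4.41, Cdx2 -3.40, Fgf8 -2.85 and Hes7 -9.34 percentile points. The median change of the members was -5.99, against -1.45 over all shared target IDs. Members other than Hes7 began at mean percentiles of 80.6 to 95.8, with more room to fall than to rise. The comparisons with all shared target IDs were not matched for level. After quantile normalization of all 24 arrays over the shared target IDs, which puts both stages on 1 log2 scale by construction, the differences ran from -0.49 for Hes7 to -2.55 for Tbx6, with a median of -1.01 against -0.09 over all. Tbx6 had the largest decrease of the members on both scales. Stage and array run cannot be told apart here.

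In the E8.5 embryos all 9 genes had a positive heterozygote minus wild type difference, and none passed the test. The median was 0.24 on the log2 scale, against 0.00120 over the 12603 target IDs tested, of which 50.4% were positive. By limma 0 members passed at an adjusted p under 0.05, while over all target IDs 0.00793% were higher and 0.0159% lower. All of those called were sex-linked genes, Xist higher and Eif2s3y and Kdm5d lower in the heterozygotes. At an unadjusted limma p under 0.05 there was 1 member, against 475 of the 12603 target IDs. The median SE of a difference at this stage was 0.223 over all target IDs. In simulated data for this comparison, 0% of 200 target IDs shifted by 0.5 log2 were recovered, 15% at a shift of 1 and 76% at 2. Shifts up to 1 log2 were thus mostly not detectable.

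The values by array show where the difference lay. T read 8.81, 8.56 and 9.12 in wild-type replicates 1, 2 and 3 and 9.43, 8.83 and 8.93 in the heterozygotes, a difference of 0.23 (SE 0.230). Cdx2 read 10.76, 10.10 and 10.93 in wild type and 11.32, 10.74 and 10.78 in heterozygotes, a difference of 0.35 (SE 0.276). In both genes wild-type replicate 2 was the lowest array and heterozygote replicate 1 the highest, and the groups overlapped. Cdx1 had the same extremes further apart: 7.75, 6.39 and 7.62 in wild type and 8.74, 7.38 and 7.46 in heterozygotes, a difference of 0.61 (SE 0.502).

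Cdx4 and Nkx1-2 were the 2 members whose genotype groups did not overlap at E8.5, where 3.96% of all tested target IDs had heterozygotes wholly above wild type and 3.02% wholly below. Cdx4 read 8.11, 7.55 and 8.08 in wild type and 8.35, 8.27 and 8.32 in heterozygotes, a difference of 0.40 (SE 0.192, adjusted p = 1.00 by limma). Nkx1-2 read 6.77, 6.25 and 6.95 in wild type and 7.90, 7.0005 and 7.22 in heterozygotes, a difference of 0.72 (SE 0.297, adjusted p = 1.00 by limma). The heterozygotes of Cdx4 lay close together (SD 0.0388), whereas those of Nkx1-2 spread (SD 0.469), with replicate 1 the highest. Nkx1-2 was the member with an unadjusted p under 0.05. Cdx4 is X-linked, and genotype and sex cannot be told apart at E8.5.

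The signals and the mesoderm factors overlapped between the genotypes. Wnt3a read 8.9993, 9.37 and 9.52 in wild type and 9.75, 9.21 and 9.43 in heterozygotes (0.16, SE 0.214). Fgf8 read 8.79, 8.33 and 8.84 against 9.32, 8.60 and 8.75 (0.24, SE 0.247). Tbx6 read 8.92, 8.71 and 9.06 against 9.43, 8.67 and 9.10 (0.17, SE 0.228), and the groups overlapped in all 3 of these genes. Hes7, near the array median, read 3.22, 2.88 and 4.16 against 3.66, 3.36 and 3.67 (0.14, SE 0.336).

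Without heterozygote replicate 1, the array with low erythroid markers, 8 of the 9 differences were positive and 0 members passed. T was then at 0.0503, Cdx1 at 0.17, Cdx2 at 0.16, Fgf8 at 0.0218, Wnt3a at 0.0222, Hes7 at 0.0943 and Tbx6 at -0.0120. Cdx4 was at 0.38 (SE 0.233), against 0.40 with all arrays, and Nkx1-2 at 0.45 (SE 0.258), against 0.72. The part of the erythroid difference in these values was not tested.

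At E9.5, differences were positive for 7 of 9 members, with a median of 0.14 against 4.89e-05 over all 15741 target IDs tested. No member passed the test. Values of E8.5 and E9.5 have different distributions, so SEs were not compared between these stages, and differences only in the joint fit below. Of all target IDs 0% were higher and 0.00635% lower, and the target ID called lower was Cirh1a itself. An unadjusted limma p under 0.05 was seen for 0 members and for 1742 of the 15741 target IDs. Overlap of the genotype groups was seen for all 9 members, where 8.33% of all tested target IDs lay wholly higher in the heterozygotes and 9.27% wholly lower. The median SE of a difference was 0.0647 on the E9.5 scale, and the SEs of the members ran from 0.0612 to 0.179. In simulated data for this comparison, 81% of 200 target IDs shifted by 0.5 log2 were recovered, and 97.5% at a shift of 1. Recovery for members with an SE above the median was not simulated apart.

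Cdx4 had the largest E9.5 difference, reading 8.95, 9.45 and 9.26 in wild-type replicates 1, 2 and 3 and 9.96, 9.56 and 9.21 in the heterozygotes (0.36, SE 0.179, 95% interval -0.04 to 0.76, adjusted p = 0.4997 by limma). Cdx2 read 10.85, 11.25 and 11.25 against 11.67, 11.60 and 10.99 (0.30, SE 0.173, 95% interval -0.09 to 0.69). In both, heterozygote replicates 1 and 2 were the highest arrays and heterozygote replicate 3 fell among the wild types. Tbx6 followed the same order, at 8.29, 8.64 and 8.49 against 8.98, 8.69 and 8.21 (0.16, SE 0.168), with heterozygote replicate 3 its lowest array.

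T read 9.36, 9.83 and 9.75 in wild type and 9.99, 9.87 and 9.49 in heterozygotes (0.14, SE 0.146). Nkx1-2, with little spread, read 7.89, 8.04 and 7.85 against 8.15, 8.09 and 7.98 (0.15, SE 0.0692, 95% interval -0.01 to 0.30, adjusted p = 0.473). Both genes had their 2 highest arrays among the heterozygotes. Fgf8 had 0.07 (SE 0.110) and Hes7 0.04 (SE 0.0858). Cdx1 and Wnt3a were the members with a negative sign, at -0.02 (SE 0.0612, interval -0.16 to 0.11) and -0.00324 (SE 0.0761, interval -0.17 to 0.17).

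**Figure D3:**
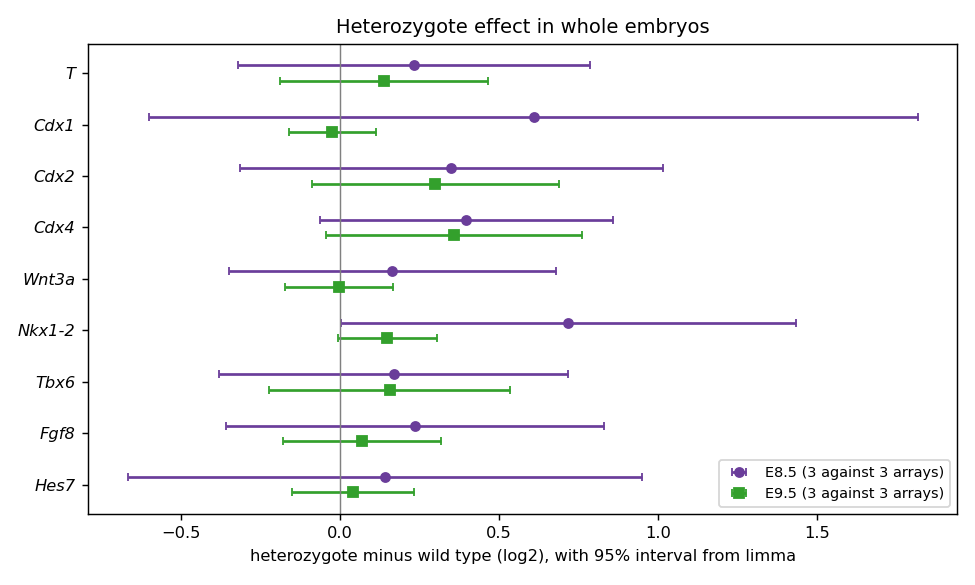
Heterozygote minus wild type difference of each gene (horizontal axis, log2) at E8.5 (circles) and E9.5 (squares), 3 against 3 arrays, with 95% intervals from limma. Intervals at E9.5 all cross 0, and at E8.5 that of Nkx1-2 alone starts just above it, before adjustment. The stages have different value distributions, so widths are not compared between them.

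Both whole-embryo stages in 1 fit left the genotype difference below the threshold. Over the 12 embryo arrays the mean effect was positive for all 9 genes, from 0.08 for Wnt3a to 0.43 for Nkx1-2 (SE 0.161, 95% interval 0.08 to 0.79, adjusted p = 0.836 by limma). Cdx4 had 0.38 (SE 0.148, 95% interval 0.05 to 0.71, adjusted p = 0.867 by limma). The intervals of these genes, which are not adjusted for the number of target IDs, did not reach 0. How many of all target IDs had such an interval, or a positive mean effect, was not counted. Of all 10527 target IDs tested in that fit 0.0095% were higher and 0.0285% lower. The effect at E9.5 minus that at E8.5 was negative for all 9 genes, from -0.01 for Tbx6 to -0.63 for Cdx1 (SE 0.552), and each had an adjusted p of 1.00 by limma, against 0.019% of all target IDs called higher and 0.0095% lower. The share of all target IDs with a negative difference of effects was not counted. The deposited values of E8.5 and E9.5 have different distributions, so the effects entering this difference and the mean effect may not share a scale. Both include the E8.5 comparison, in which genotype and sex cannot be told apart. After quantile normalization of the 12 embryo arrays the E9.5 minus E8.5 difference turned positive for Cdx4 (0.08), Tbx6 (0.03) and Cdx2 (0.01). Without E8.5 heterozygote replicate 1 it was positive for T (0.0877), Cdx2 (0.13), Tbx6 (0.17) and Fgf8 (0.0478), and the mean effect was 0.30 (SE 0.122) for Nkx1-2 and 0.37 (SE 0.163) for Cdx4.

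The members tended to be high or low in the same arrays. At E8.5 heterozygote replicate 1 was the highest of the 6 arrays for 8 of the 9 genes, Hes7 excepted, and wild-type replicate 2 the lowest for 7, Wnt3a and Tbx6 excepted. The mean deviation of the 9 genes from their stage means was 0.54 log2 in heterozygote replicate 1 and -0.54 in wild-type replicate 2. The other 4 arrays lay between -0.11 and 0.14, with the genotypes mixed. At E9.5 heterozygote replicate 1 was the highest for 6 genes (mean deviation 0.24) and wild-type replicate 1 the lowest for 6 (-0.23), and heterozygote replicate 3 (-0.12) lay below wild-type replicates 2 and 3 (0.06 and -0.02).

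Without both extreme arrays of a stage, a comparison chosen after seeing the data, the positive differences numbered 3 of 9 at E8.5 and 4 of 9 at E9.5. The arrays removed were the highest heterozygote and the lowest wild type for these same genes, so a smaller difference follows from the choice, and the counts only show how much these arrays carry. At E8.5 the 3 were Cdx4 (0.20), Nkx1-2 (0.25) and Wnt3a (0.06), and T (-0.08), Cdx2 (-0.08) and Cdx1 (-0.26) turned negative. At E9.5 Cdx2 (0.04), Cdx4 (0.03), Nkx1-2 (0.09) and Hes7 (0.03) were the positive ones, with T at -0.11. With only these arrays removed the groups held 2 arrays each, and 0 members passed the test.

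**Figure D4:**
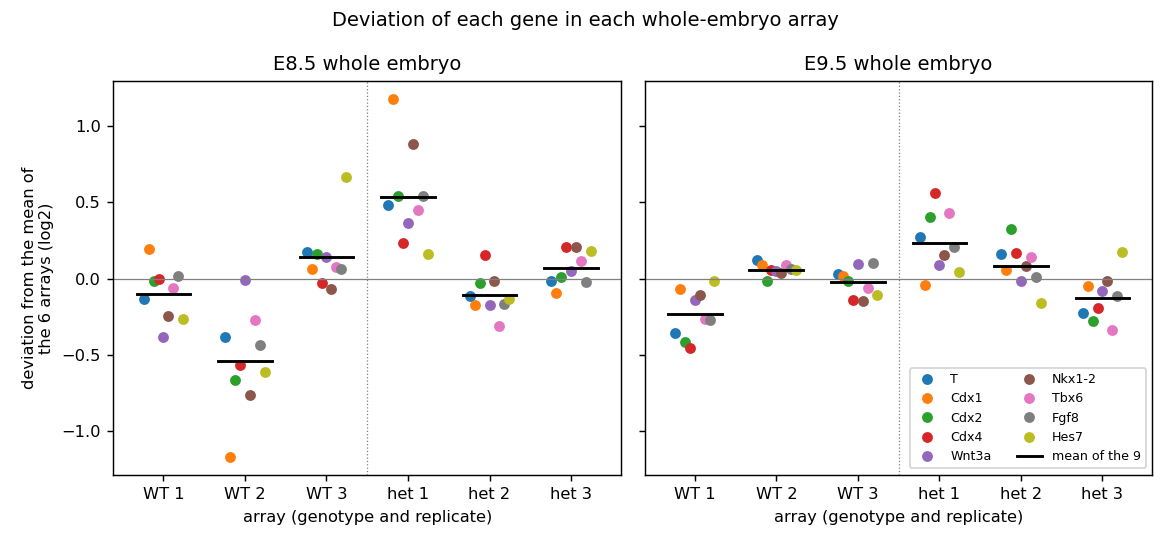
Deviation of each gene from its mean over the 6 arrays of a stage (vertical axis, log2), by array (horizontal axis; WT, wild type; het, heterozygote), with the mean of the 9 genes as a black line. At E8.5 that mean is highest in heterozygote replicate 1 (0.54) and lowest in wild-type replicate 2 (-0.54), and at E9.5 in heterozygote replicate 1 (0.24) and wild-type replicate 1 (-0.23).

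Beside the low erythroid markers of E8.5 heterozygote replicate 1, markers of other tissues moved between the arrays of both embryo stages. At E8.5 the 4 tested genes of the liver marker list had mean levels of 12.20, 10.60 and 10.24 in wild-type replicates 1, 2 and 3. In the heterozygotes these read 11.25, 10.995 and 11.44. The 4 tested markers of visceral endoderm and placenta read 8.54, 7.23 and 7.25 against 7.71, 7.69 and 8.14. Both lists were highest in wild-type replicate 1, and whether they read separate tissues in whole embryos was not tested. The 3 heart markers lay between 9.05 and 9.45 at E8.5. At E9.5 the 4 liver markers above the filter, of 5 listed, were higher in the heterozygotes without overlap, with mean levels of 11.20, 10.72 and 10.12 in replicates 1, 2 and 3 against 9.75 to 9.88 in wild type. The 4 markers of visceral endoderm and placenta above the filter, of 5 listed, ran in the same order, at 9.59, 8.86 and 8.62 against 8.02 to 8.28. Alb and Tpbpa were the markers below the filter, with means of 5.94 and 6.10 in wild type against a median of 6.63. The 3 neural markers above the filter (of 4) were lower, at 7.91, 7.82 and 7.98 against 8.21 to 8.27 without overlap, and the 3 heart markers with values were higher, at 12.07, 11.91 and 11.85 against 11.69 to 11.75. None of these markers passed the test by limma, and their lowest adjusted p was 0.146 for liver and 0.104 for neural markers at E9.5. Their part in the differences of the tail bud genes was not tested.

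Genes of the same pathways gave 0 calls in the embryo comparisons of genotype. The E8.5 values of the lists include heterozygote replicate 1. In that array the Wnt list had a mean deviation of 0.53 from its stage means. It had -0.22 and -0.07 in heterozygote replicates 2 and 3, and -0.09, -0.19 and 0.04 in the wild types. At E8.5 the Wnt list had 11 of 14 tested members positive (median 0.15), from the secretion factor Porcn (-0.61, SE 0.312) and the cyclin Ccnd1 (-0.22, SE 0.149) to Sp5 (0.47, SE 0.256) and the ligand Wnt8a (1.43, SE 0.860). The axial progenitor list had 7 of 9 positive (median 0.22), from Sox2 (-0.14) and Greb1 (-0.08) to Shh (0.36) and the retinoid-degrading enzyme Cyp26a1 (0.39, SE 0.568). The Fgf list had 10 of 12 positive with a median of 0.05, from Fgf3 (-0.11) and Il17rd (-0.08) to Etv4 (0.28) and Dusp6 (0.28). Notch and clock genes were split 6 and 6, from Hes5 (-0.48) and Nrarp (-0.34) to Ripply1 (0.43) and Mesp1 (0.53). Of the somite genes 4 of 10 were positive, from Meox2 (-0.51) and Pax3 (-0.27) to Foxc2 (0.24) and Aldh1a2, a retinoic acid enzyme (0.42).

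The same lists at E9.5 had medians of 0.03 (Wnt, 14 tested), 0.06 (Fgf, 11), 0.02 (Notch, 12), 0.03 (axial progenitors, 10) and -0.05 (somites, 12). At the ends of the axial progenitor list stood Evx1, a homeobox gene of the streak and tail bud (0.42, SE 0.186, adjusted p = 0.440 by limma), and Hoxb1 (0.23, SE 0.0628), with Grsf1 (-0.10) and Greb1 (-0.08) opposite. Notch1, the receptor of the pathway, had the lowest adjusted p of these lists (-0.39, SE 0.0831, adjusted p = 0.157) and lay below wild type in all 3 heterozygotes, and Hes5 had -0.13. Cited1 (0.23, SE 0.0704) and Mesp1 (0.18) were the highest of that list. Among somite genes Meox2 (-0.23, SE 0.0650) and Twist1 (-0.16) were lowest and Foxc1 (0.06) and Foxc2 (0.05) highest. In the Wnt and Fgf lists the values ran from -0.06 (Fzd10 and Tcf7) to 0.15 (Dkk1, with Porcn at 0.12) and from -0.08 (Dusp6, with Spry4 at -0.03) to 0.14 (Etv5, and Fgf17 at 0.14).

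In liver most members lay below the filter and could not be compared by genotype. At E11.5 Cdx1 and Hes7, and at E12.5 Cdx1, Cdx2 and Wnt3a, had a mean above the median of all target IDs, the filter for testing. Their differences were -0.00497 and 0.10 at E11.5 and -0.19, -0.42 and 0.16 at E12.5, each with an adjusted p of 1.00 by limma, where 0% of all target IDs were called in either direction at either stage. The genotype groups overlapped for all 9 genes at both liver stages. Of all tested target IDs 4.14% lay wholly higher and 4.05% wholly lower in the heterozygotes at E11.5, and 3.52% and 3.6% at E12.5.

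Over the 24 arrays the target IDs whose percentile followed the mean percentile of the 9 members most closely were Gbx2 (Pearson r = 0.992), LOC245668 (0.990), Fgfbp3 (0.989), Nr6a1 (0.988) and Arid3b (0.987), out of 10526 above the median at both embryo stages. Gbx2 is a homeobox factor of the hindbrain border and early posterior embryo, Nr6a1 a nuclear receptor needed for trunk growth in mice, and Fgfbp3 a carrier of Fgf proteins. Gbx2 had mean percentiles of 97.3, 94.8, 81.1 and 80.6 at E8.5, E9.5, E11.5 and E12.5. These targets followed the course of the members but stayed well above the array median in liver, where the members did not. Of the members Fgf8 was closest to the set's own mean (r = 0.973) and Hes7 farthest (0.467). Among the 10526 targets Fgf8 ranked 47, Cdx1 162, T 616 and Hes7 4651, so the profile was not particular to the members. These correlations describe mostly the 4 stages, which the 24 arrays share, and carry no test.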

How the data were processed

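The authors deposited log2 expression values, 1 per target ID and array, for 24 arrays; background correction, normalization method and software are not given in the sources used here. RNA was column-purified and labelled as biotinylated cRNA, per the labels' protocols. Another 4 tables hold 48 columns of signal and detection p-values whose names match no sample label; only their probe identifiers were read, so no detection call was used. The members, gene lists and tests were chosen with earlier results of these data known. Of the erythroid marker list 3 genes are reported. The plan's other routes for unnormalized values were not needed.

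Heterozygotes were compared with wild types separately at every stage by limma 3.58.1 (R 4.3.3), over target IDs whose mean exceeded the stage's median, two-sided, with Benjamini-Hochberg adjustment and a threshold of 0.05. The 12 embryo arrays and the E8.5 with E12.5 arrays (no level filter, genotype as a term) were fitted likewise. At 3 against 3 arrays an exact permutation p cannot go below 0.1. The number of arrays limits the precision. All 9 members were named, with each list's 2 highest and 2 lowest genes by genotype difference; between E8.5 and E12.5 the list genes past the threshold were named, and those given with values were chosen after their values were seen. The 5 targets most like the members followed a rule on Pearson r. Fits were tested on simulated data with 200 shifted target IDs. Alternatives covered filters, normalization, trend, array weights, a replicate block and leaving out arrays.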

Additional observations from a re-analysis of the deposited data

How the results depend on the processing

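No member was called for genotype under any alternative run, and all 9 stayed lower in E12.5 liver, except that Hes7 with wild types alone was at -0.82 with an adjusted p of 0.0877. The counts over all target IDs are small and moved. With a filter at the 75th percentile 0 were lower at E8.5, and 6 were higher and 8 lower at E9.5. An intensity trend gave 5 and 9 at E9.5 and 1 lower at E12.5, and array weights gave 2 and 7 at E9.5. The effect at E9.5 minus that at E8.5 turned positive under quantile normalization for Cdx2 (0.0123), Cdx4 (0.0804) and Tbx6 (0.0336). The cause was not tested. The depth of the signal over background was not available for these columns, and values near the array median may be background.

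Same-numbered samples did not deviate together at every stage: for replicates 1, 2 and 3 the correlations of E8.5 deviations were 0.18, 0.13 and 0.10, those of E9.5 were 0.02, -0.08 and -0.01, those of E11.5 were -0.39, -0.31 and -0.13, and those of E12.5 were 0.09, 0.10 and 0.00679. Not every correlation exceeded 0.1 at any stage, so the numbers were not taken to pair the samples, which leaves E8.5 unsettled. With the replicate block 0 target IDs were higher at E8.5 and 2 were lower at E9.5, against 1 and 1 without it, and 0 members were called. Each E8.5 wild-type sample correlated best with the heterozygote of its own number, a hint from the data only. So did wild-type replicates 1 and 2 at E12.5. The best partners of the heterozygotes were not sought.

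Leaving out arrays, including the 2 extreme arrays of a stage (chosen after seeing the data), gave 0 to 1 target IDs higher at E8.5, and 0 to 39 higher and 0 to 15 lower at E9.5, the highest counts without heterozygote replicate 3. The stage difference had 2 to 18 higher and 1 to 44 lower, and the mean effect 1 to 143 higher and 3 to 38 lower, the highest counts without E8.5 wild-type replicate 1. Members with a positive difference numbered 3 to 9 among E8.5 embryos and 4 to 9 among E9.5 embryos. At E8.5 the differences ranged from -0.0843 to 0.38 (T), -0.26 to 0.86 (Cdx1), -0.0823 to 0.52 (Cdx2), -0.11 to 0.37 (Tbx6), -0.14 to 0.38 (Fgf8) and -0.18 to 0.51 (Hes7). At E9.5 they ranged from -0.11 to 0.29 (T), -0.0640 to 0.0134 (Cdx1), -0.12 to 0.0441 (Wnt3a), -0.11 to 0.37 (Tbx6), -0.13 to 0.14 (Fgf8) and -0.0364 to 0.13 (Hes7). Cdx1 at E11.5 ranged from -0.0372 to 0.0127. The stage difference ranged from -0.24 to 0.09 (T), -0.22 to 0.20 (Cdx2), -0.23 to 0.15 (Cdx4), -0.21 to 0.20 (Tbx6), -0.31 to 0.0478 (Fgf8) and -0.47 to 0.17 (Hes7), and the mean effect of Hes7 from -0.0447 to 0.28. Nkx1-2 and Cdx4 kept a positive sign at both embryo stages, with lowest values of 0.25 and 0.20 in the E8.5 embryos and 0.0905 and 0.0306 in the E9.5 embryos.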
